A study of Caenorhabditis elegans with 24 samples.

Results

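The genes described here encode the subunits of the vacuolar proton pump (V-ATPase) and the proteases and membrane glycoproteins of the lysosome in Caenorhabditis elegans. They were taken from the count table by WormBase symbol: the vha genes and unc-32 for the pump, the asp genes for aspartyl proteases, the cpr, cpl and cpz genes for cathepsin-like cysteine proteases, the lmp genes for lysosome-associated membrane glycoproteins, and the scav genes for scavenger receptors of the CD36 type. The table held 57 such symbols among its 46778 genes, and 53 of them had at least 10 counts in at least 3 of the 24 libraries. Those 53 members were 9 subunits of the V1 sector, 10 of the V0 sector and 2 accessory subunits, 14 aspartyl proteases, 7 cathepsin B-like and 3 cathepsin L- or Z-like proteases, 2 membrane glycoproteins and 6 scavenger receptors. The rule used symbols and a minimum of counts, not a difference between groups, although earlier results of these data were known when the set was proposed. All 53 passed the filter of the test. The 4 symbols left out were asp-15, asp-16 and asp-19, with 1, 1 and 0 counts in all, and cpr-2, with 121 counts, at 10.7 CPM (counts scaled to 1e+06 per library) in 1 adult library of other cells and at most 0.268 CPM elsewhere. Just inside the limit were asp-17 with 75 counts, asp-18 with 171 and asp-7 with 189.

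The pump uses ATP hydrolysed by its cytosolic V1 sector to drive protons through its membrane-bound V0 sector, and so acidifies endosomes, lysosomes and secretory vesicles, or the space outside a cell where it sits in the plasma membrane. The low pH that it makes lets cathepsins mature and act. In the worm the V0 subunit a comes from a small gene family whose members serve different tissues, while most other subunits come from a single gene each.

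The study took cells from wild-type hermaphrodites that express Venus in the distal tip cell (DTC), the somatic cell at the end of each gonad arm, which steers the arm as it lengthens in the larva and keeps the germline stem cells beside it undifferentiated. Cells were sorted from adults and from larvae of the late L3, the early L4 and the late L4 into a Venus-positive fraction, labelled as DTCs, and the cells without Venus, a mixture of other tissues. This gives 8 groups of 3 libraries. All animals grew at 20 °C on OP50 bacteria, and 30000 to 60000 cells made 1 sample. The promoter that drives Venus is not given in the sources used here, and a difference between the fractions is a difference from that mixture.

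Total counts ran from 8391423 to 18045720 per library. The summed level of 18 DTC markers was 55520 to 158126 CPM (after scaling of libraries by the TMM method, as throughout) in larval DTC libraries, 11016 to 17888 in adult DTC libraries and 2834 to 25850 in other cells. Among them lag-2, the Notch ligand of the niche, stood at 166 to 341 CPM in larval DTCs, 46.8 to 54.3 in adult DTCs and at most 2.78 in other cells. Of 23 intestine markers the sum was 37963 to 175023 CPM in adult DTC libraries, against 8902 to 35456 in adult other cells and at most 3257 in larval DTCs. The sum of 16 body wall muscle markers was 53333 to 70601 CPM in adult DTCs against 12298 to 35493 in larval ones. In bulk libraries fewer cells of a type and less RNA per cell cannot be told apart. 4 libraries stood apart from the others of their groups, in that the spread of counts over genes (reduced chi-square) to either replicate was over 3 times that between the other two. DTC late L3 replicate 3 (155 and 201 against 31.4) held 272 CPM of hypodermis markers against 1148 and 1975. Replicate 3 of other cells at late L3 (reaching 210 against 24.7) held 2058 CPM of sperm markers against 13 and 23, and replicate 3 of other cells at late L4 (167 and 180 against 38.2) held 3337 CPM of coelomocyte markers against 1218 and 1125. DTC late L4 replicate 3 (112 and 147 against 29.6) held 304 CPM of hypodermis markers against 1956 and 1889. Calls that end without the first 3 of these, called the 3 libraries that stand apart, or without all 4 are given both ways. Of the adult libraries, replicate 1 of other cells (273 and 351 against 107) and DTC replicate 2 (111 and 133 against 77.6), the lowest of its group in intestine markers, lay under that limit and were left out only singly.

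The pump and the proteases followed different courses. Summed over its 21 genes, the V-ATPase stood in DTCs at 1501 ± 42 CPM at late L3 (mean ± SD, n = 3 here and below), 2008 ± 154 in early L4 larvae, 2527 ± 97 in late L4 larvae and 2725 ± 381 in adults. In other cells the same sums were 1737 ± 225, 1482 ± 236, 1854 ± 285 and 2579 ± 916 CPM. The 24 proteases summed to 699 ± 506, 1405 ± 210, 4150 ± 735 and 27509 ± 15355 CPM in DTCs, and to 2942 ± 673, 2647 ± 201, 3004 ± 475 and 10264 ± 6333 CPM in other cells. Protease sums of the 2 fractions did not overlap at late L3 and early L4, where DTCs were lower, nor at late L4, where DTCs were higher. In adults they overlapped: DTC replicate 2 held 9882 CPM and replicates 1 and 3 held 34674 and 37972. The proteases took 2.14%, 0.806% and 2.28% of all counts in the 3 adult DTC libraries. The V-ATPase took 0.229%, 0.252% and 0.211% of all counts in DTCs at late L4 and 0.176%, 0.187% and 0.182% in adults. Its share of counts was thus lower in adult DTCs, whereas its mean after TMM scaling was higher.

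**Figure D1:**
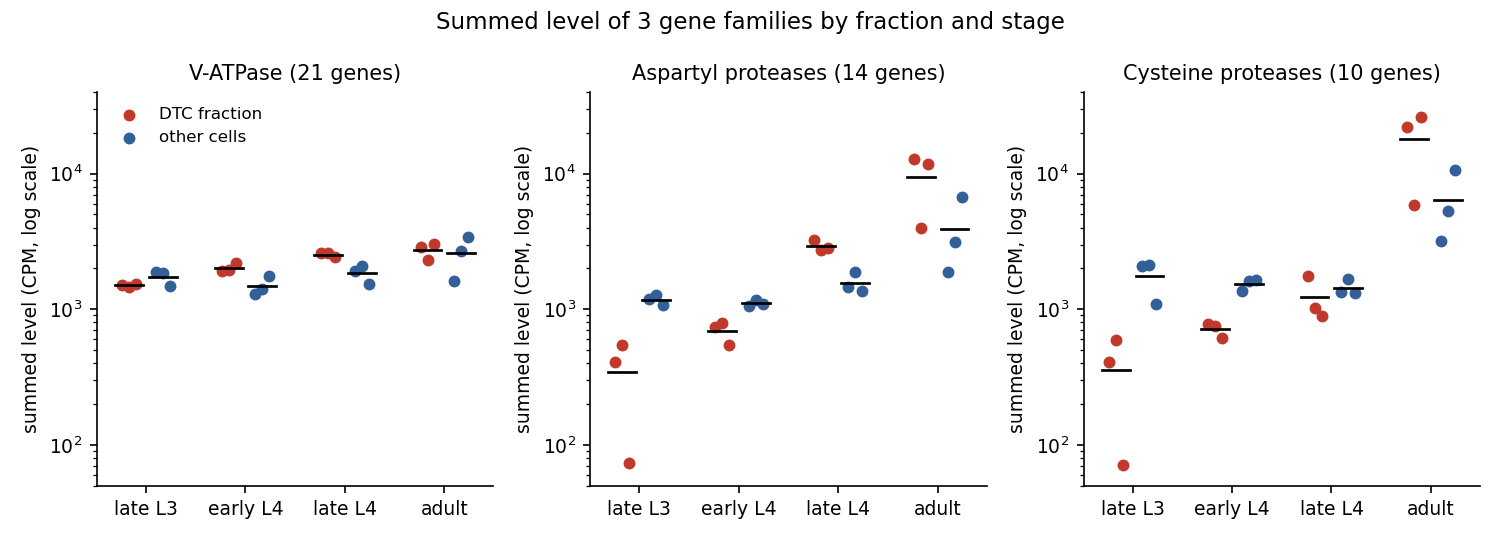
Summed level (CPM, log scale) of the 21 V-ATPase genes, the 14 aspartyl proteases and the 10 cysteine proteases in each library; points are libraries, bars are means of 3, red is the DTC fraction and blue other cells. V-ATPase sums stay between 1288 and 3431 CPM in all 24 libraries, while cysteine protease sums span 71 to 26183 CPM.

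Per kilobase of exon the highest member changed with the stage. In group means of DTCs it was vha-2, a gene for the proteolipid ring of the pump, at late L3 (230 CPM per kb) and early L4 (300), asp-4 at late L4 (933) and cpr-6 in adults (6520, beside 4920 for cpz-1 and 2090 for asp-4). In larval DTCs cpr-6 stood at 48, 123 and 185 CPM per kb. In other cells the highest members were cpr-5 at late L3 (423), cpz-1 at early L4 (336), asp-1 at late L4 (386) and cpr-9 in adults (1810). Averaged over the 12 DTC libraries, the lowest members per kilobase were asp-9, asp-7, cpr-8, asp-17 and asp-18, at 0.122 to 0.546 CPM per kb. Of the 24 proteases 18 lie on chromosome V, where 20 of the 53 members lie. Several members are direct neighbours, such as asp-6, asp-12 and asp-5 within V:8267511-8274044 and vha-1 and vha-2 within III:9781254-9783224 (WBcel235, the assembly of the ce11 build that the counts were made on).

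Between fractions, the first comparison averaged the 4 stages. In it edgeR called 13 of 53 members, 6 higher in DTCs and 7 lower, where 30.6% of all 16887 genes tested were called (16.3% higher, 14.3% lower). The members' share was 24.5%. Their count was 19 with DESeq2 and 11 to 18 with single libraries left out, so no difference from the background is read from it. Higher in DTCs were unc-32, vha-20, lmp-1, scav-3, asp-14 and asp-17, and lower were vha-18, asp-6, asp-9, cpr-1, cpr-4, cpr-5 and cpr-9. The median log2 fold change was 0.06 over the members and -0.14 over all genes. Scaling by library totals alone gave 4 higher and 16 lower, and RLE scaling 6 and 12. 10 of the calls held whichever single library was left out. The call of asp-14 was lost without any of 8 libraries (adjusted p up to 0.1, without adult DTC replicate 1), and with the adult groups left out (0.43 on the log2 scale, adjusted p = 0.356). That of vha-20 was lost without the 3 libraries that stand apart (0.37, adjusted p = 0.102), and that of vha-18 without all 4 (-0.63, adjusted p = 0.0697).

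By stage, 9 of 24 proteases were lower in DTCs at late L3 and 5 of 24 higher in adults. At late L3 12 members were called, 2 higher and 10 lower, against 13.4% of all genes (6.03% higher, 7.33% lower), and 9 of the 10 lower members were proteases. The scalings by RLE and by library totals gave 0 higher with 15 and 11 lower. At early L4 5 members were called, 4 higher and 1 lower, against 11% of all genes (9.4% higher, 1.65% lower); with RLE scaling the split was 3 and 2, and with library totals 2 and 8. At late L4 6 members were higher and 0 lower, against 11.8% of all genes (9.19% higher, 2.61% lower). In adults 7 members were called, 6 higher and 1 lower, against 13.3% of all genes (8.19% higher, 5.12% lower). Median log2 fold changes of the 24 proteases were -1.66, -0.8, 0.08 and 0.85 from late L3 to adult, beside -0.03, -0.35, -0.14 and 0.11 over all genes. For the 21 pump genes they were -0.28, 0.37, 0.23 and 0.08.

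Single libraries carried many of the stage calls. At late L3 asp-4, asp-6 and cpr-5 held whichever library was left out, while the call of cpr-1 was lost without 2 libraries (adjusted p up to 0.0539), those of cpr-4, cpr-9, cpz-1 and unc-32 without 4 (up to 0.11), and those of vha-7, cpl-1, asp-1 and vha-8 without 10 to 14 (up to 0.167). Without the 3 libraries that stand apart, 9 members were called at late L3, 0 higher and 9 lower, and without all 4 the count was 7, 0 higher and 7 lower. At early L4 unc-32 held throughout, and at late L4 unc-32, vha-20 and scav-3 did; the late L4 calls of asp-4, lmp-1 and vha-15 were lost without DTC replicate 3 (adjusted p from 0.0671 to 0.128). In adults asp-4 held throughout, while the calls of asp-8, asp-14, cpr-6, cpz-1 and lmp-2 were lost without any of 3 or 4 libraries each, DTC replicate 1 and other cells replicates 1 and 2 among them (adjusted p up to 0.132). That of vha-18 was lost without any of 14 libraries (adjusted p up to 0.156, without other cells replicate 1). With only the 6 adult libraries in the fit 1 member was called.

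Along the larval stages few members were called. Median log2 fold changes over the 53 members were 0.6 and then 0.68 at the larval DTC steps, beside -0.06 and 0 over all genes. For other cells they were -0.22 and 0.26, beside -0.16 and -0.01. In DTCs 0 members were called from late L3 to early L4 by edgeR, where 2% of all genes were called (1.79% higher, 0.213% lower); 7 members had an unadjusted p under 0.05, and DESeq2 called 6. From early to late L4 in DTCs 4 members rose and 0 fell, against 5.57% of all genes (3.8% higher, 1.77% lower), namely asp-1, asp-3, asp-4 and scav-3. In other cells edgeR called 0 members from late L3 to early L4 (0.361% of all genes, 0.201% higher and 0.16% lower; 5 at an unadjusted p under 0.05, 3 by DESeq2). It called 0 from early to late L4 as well (2.09%, 1.85% higher and 0.243% lower; 4 at an unadjusted p under 0.05, 0 by DESeq2). Of the 4 calls in DTCs, asp-4 held whichever library was left out, and the count fell to 1 without DTC early L4 replicate 3, where asp-1 had an adjusted p of 0.0996 and asp-3 of 0.223. The call of scav-3 ended without the 3 libraries that stand apart (adjusted p = 0.0544; 0.165 without all 4).

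The step from late L4 to adult held the most calls of the 3 steps in both fractions. In DTCs 15 members rose and 2 fell, against 6.68% and 6.12% of all genes, so that 32.1% of members were called where 12.8% of all genes were. The 15 were 12 of the 24 proteases, lmp-2, vha-7 and vha-10, and the 2 that fell were unc-32 and vha-20. Scaling by library totals gave 10 that rose and 4 that fell. In other cells 8 members rose and 0 fell, against 6.71% of all genes (2.05% higher, 4.65% lower): asp-2, asp-6, cpr-4, cpr-6, cpr-9, cpz-1, vha-7 and vha-15. The median log2 fold change of the 24 proteases was 2.11 in DTCs and 1.48 in other cells, beside -0.01 and 0.09 over all genes. In DTCs asp-2, cpl-1, cpr-6, cpr-9, cpz-1 and lmp-2 held whichever library was left out, and the count fell to 7 without late L4 replicate 2; the other 11 calls were each lost without 1 to 22 single libraries (adjusted p up to 0.252). In other cells none held throughout: without adult replicate 3, the highest in protease sum at 17307 CPM, 0 members were called. Ribosomal RNA took 11.2%, 33.2% and 32.6% of counts in replicates 1 to 3 of adult other cells, whose protease sums were 5040, 8444 and 17307 CPM, against 7.25% to 16.1% in other cells at late L4; its part in the adult step was not tested. Without the 3 libraries that stand apart, vha-7 was not called in DTCs (adjusted p = 0.0953), nor without all 4 were vha-7, vha-10, vha-20 and asp-8 (adjusted p from 0.053 to 0.127). Without the 3, asp-2, asp-6, vha-7 and vha-15 were not called in other cells (adjusted p from 0.0501 to 0.132), while without all 4 the 8 calls in other cells held.

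Whether the stage course differed between the fractions was tested directly, with an F test over the 3 steps. It called 7 members, against 13.9% of all genes: asp-4, cpr-5, cpz-1, vha-7, vha-15, vha-20 and unc-32. For the other 46 members a difference in stage course was not called.

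**Figure D2:**
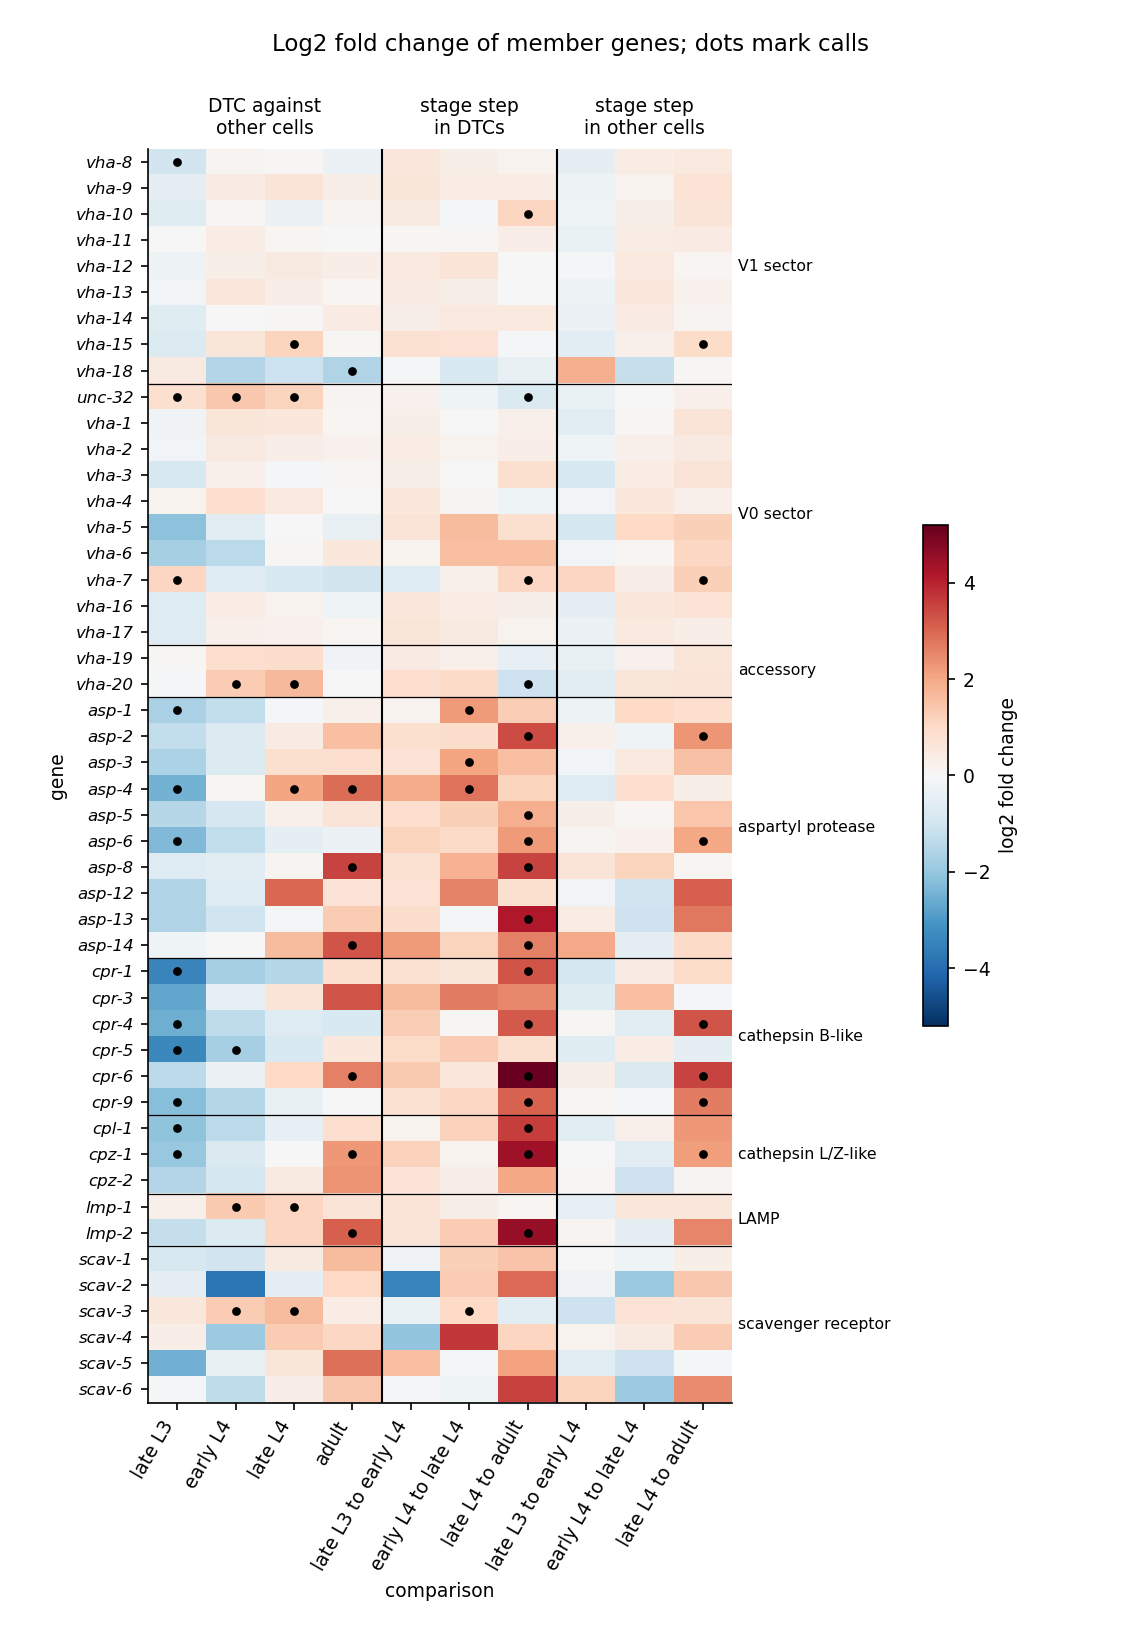
Log2 fold change of 48 members (rows, by family) in 10 comparisons (columns): DTCs against other cells at 4 stages, then the 3 stage steps in DTCs and in other cells; black dots mark calls at an adjusted p under 0.05, and 5 members with a group at 3 counts or fewer are not drawn. Most protease rows are blue at late L3 and red at the adult step of DTCs (cpr-6 at 5.14), while most pump rows stay pale.

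Most pump subunits did not pass the test in any comparison: this holds for 14 of the 21. The same count over all genes is not given here. At late L3 and late L4 3 of the 21 were called, where 13.4% and 11.8% of all genes were. At the adult step 4 were called in DTCs and 2 in other cells, where 12.8% and 6.71% of all genes were. The stage course had 4 calls, against 13.9%. Over the 4 stages 3 were called, at early L4 2 and in adults 1, against 30.6%, 11% and 13.3%. At the larval steps none was called. The catalytic head subunits A and B, encoded by vha-13 and vha-12, stood in DTCs at 230 ± 24 and 109 ± 20.3 CPM at late L3 and at 387 ± 45.3 and 246 ± 46.8 at late L4. Other cells held 254 ± 34.3 and 133 ± 9.46 CPM at late L3 and 307 ± 46.8 and 178 ± 31.1 at late L4. From late L3 to adult the stalk subunits vha-11 (C), vha-14 (D) and vha-9 (F) went from 63.8, 60.9 and 27.1 CPM to 87.5, 153 and 72.5 in DTC means, with no step past the threshold. Subunit E, vha-8, was called lower in DTCs at late L3, with means of 71.3 ± 2.18 against 137 ± 21.2 CPM (log2 fold change ± SE of -0.94 ± 0.29, adjusted p = 0.0379; values with ± that stand before an adjusted p are of this kind throughout). That call was lost without the 3 libraries that stand apart (adjusted p = 0.0679; 0.102 without all 4). Subunit G, vha-10, rose in DTCs from 74.1 ± 7.93 CPM at late L4 to 160 ± 5.39 in adults (1.11 ± 0.3, adjusted p = 0.0184), a call lost with library totals alone (0.67, adjusted p = 0.0968).

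In the V0 sector subunits d (vha-16), e (vha-17) and c'' (vha-4) had DTC means of 46.4, 25.6 and 74.5 CPM at late L3 and 111, 62 and 103 in adults, and none was called. The proteolipid subunit c is encoded by vha-1, vha-2 and vha-3. DTC libraries held vha-2 at 237, 214 and 215 CPM at late L3, 281, 270 and 316 at early L4, 307, 349 and 317 at late L4 and 510, 310 and 424 in adults. For other cells the vha-2 values were 265, 256 and 217 CPM at late L3, 183, 196.2 and 257 at early L4, 268, 302 and 196.1 at late L4 and 221, 327 and 519 in adults. The fractions overlapped at late L3 and in adults, and no comparison was called; the log2 difference over the 4 stages was 0.22 ± 0.13, adjusted p = 0.232. DTC levels of vha-3 were 9.46, 6.51 and 4.83 CPM at late L3, 7.68, 9.28 and 8.45 at early L4, 10.2, 7.52 and 7.86 at late L4 and 17.1, 14.6 and 13.9 in adults. Its levels in other cells were 16.1, 11.9 and 8.88 CPM at late L3, 3.53, 4.73 and 12.8 at early L4, 10.2, 11.6 and 5.75 at late L4 and 6.62, 12.5 and 25 in adults. The fractions overlapped at every stage and vha-3 was called nowhere; its share of the subunit c transcripts per length lay between 3.51% and 5.98% in all 8 groups. The proteins of vha-2 and vha-3 are nearly identical, so reads may have been split between them, and 22.7% of the exon length of vha-2 overlaps a gene on the same strand. For vha-1 group means ran from 48.3 to 90.3 CPM.

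Subunit H, which couples V1 to V0, has 2 genes whose balance differed between groups. In DTC libraries vha-15 stood at 59.3, 59.6 and 68.9 CPM at late L3, 91.5, 113 and 120 at early L4, 178, 195.8 and 177 at late L4 and 172, 143 and 201 in adults. Other cells held vha-15 at 108, 111 and 89.1 CPM at late L3, 76, 55.4 and 76.2 at early L4, 81.9, 72.8 and 94 at late L4 and 96.7, 134 and 258 in adults. DTCs were above other cells in every library at early and late L4 and below at late L3. At late L4 the difference was called (2.21-fold higher, log2 1.15 ± 0.28, adjusted p = 0.00832), though not without the 3 libraries that stand apart (1.0, adjusted p = 0.0544) or without DTC late L4 replicate 3 alone (0.94, adjusted p = 0.0721); without all 4 it was called (1.27, adjusted p = 0.0371). In other cells vha-15 rose from late L4 to adult (0.97 ± 0.28, adjusted p = 0.0414), a call lost without any of 20 libraries (adjusted p up to 0.565, without adult replicate 3).

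The second gene, vha-18, had DTC levels of 39.4, 32.1 and 34.4 CPM at late L3, 44.3, 30.7 and 24.2 at early L4, 21.4, 20.5 and 15.1 at late L4 and 17.7, 16.1 and 10.3 in adults. In other cells it stood at 12.6, 13.9 and 50.9 CPM at late L3, 91.9, 114 and 78.5 at early L4, 24, 51.5 and 49.1 at late L4 and 65.7, 16.8 and 48.6 in adults. All early L4 libraries of other cells were above every other library of the series for this gene. Over the 4 stages vha-18 was 1.92-fold lower in DTCs (-0.94 ± 0.25, adjusted p = 0.00738), and in adults 2.97-fold lower (-1.57 ± 0.51, adjusted p = 0.0468) with 1 library overlapping, a call lost without any of 14 single libraries. Per length, vha-15 made up 59.7 ± 3.56% of subunit H transcripts in DTCs at late L3, 73.0 ± 8.87% in early L4 larvae, 88.98 ± 1.67% in late L4 larvae and 90.5 ± 3.29% in adults. In other cells the share was 78.0 ± 16.2%, 38.2 ± 8.28%, 63.2 ± 10.05% and 74.5 ± 17.02%. The step of vha-18 in other cells from late L3 to early L4 was not called (1.88 ± 0.51, adjusted p = 0.116).

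Subunit a anchors the pump in a given membrane, and its 4 genes followed different courses. The gene unc-32, named for the uncoordinated movement of its mutants, stood in DTC libraries at 179, 199.1 and 198 CPM at late L3, 218, 211 and 249 at early L4, 196.4, 185 and 190 at late L4 and 120, 105 and 114 in adults. In other cells unc-32 values were 135, 106 and 82.9 CPM at late L3, 77.9, 76.4 and 97.8 at early L4, 85.4, 68.1 and 104 at late L4 and 108, 79.2 and 121 in adults. At all 3 larval stages every DTC library was above every library of other cells, and in adults the fractions overlapped. Over the 4 stages unc-32 was 1.85-fold higher in DTCs (log2 0.89 ± 0.11, adjusted p = 3.57e-06, edgeR), the smallest adjusted p among the members in that comparison. By stage the log2 differences were 0.83 ± 0.22, adjusted p = 0.0165 at late L3, 1.42 ± 0.22, adjusted p = 0.000152 in early L4 larvae, 1.15 ± 0.22, adjusted p = 0.00124 in late L4 larvae and 0.13 ± 0.22, adjusted p = 0.745 in adults. Without the 3 libraries that stand apart the late L3 difference was 0.53 (adjusted p = 0.251). In DTCs unc-32 fell from late L4 to adult (-0.76 ± 0.22, adjusted p = 0.0283), a call lost without DTC late L4 replicate 1 (adjusted p = 0.074). The level of the DTC markers moved the same way over that step, and its part in the fall was not tested.

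Expression of vha-6, whose product sits in the apical membrane of the intestine, was in DTC libraries 17.3, 19.2 and 1.61 CPM at late L3, 12.8, 18.9 and 12.3 at early L4, 52.6, 45.4 and 33.3 at late L4 and 121.9, 80.1 and 189 in adults. Other cells held vha-6 at 45.9, 54.1 and 26.5 CPM at late L3, 27.2, 40.6 and 47.9 at early L4, 44.2, 54.8 and 25.4 at late L4 and 46.7, 96.1 and 121.7 in adults. DTC libraries were below those of other cells at late L3 and early L4 and overlapped with them later. None of these differences passed the threshold (-1.73 ± 0.59, adjusted p = 0.0595 at late L3), nor did the step from late L4 to adult in DTCs (1.57 ± 0.59, adjusted p = 0.0853). For vha-5, known from the excretory canal and the hypodermis, DTC values were 7.65, 4.23 and 0 CPM at late L3, 8.24, 4.44 and 6.34 at early L4, 22.4, 28.2 and 8.45 at late L4 and 39.3, 7.75 and 59.6 in adults. The vha-5 values of other cells were 23.3, 22.9 and 6.54 CPM at late L3, 3.89, 9.97 and 14.3 at early L4, 22.1, 18.5 and 17.7 at late L4 and 30.8, 30.1 and 78.2 in adults. The fractions overlapped at every stage and vha-5 was called nowhere.

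The last of the 4, vha-7, known from hypodermis and uterus, stood in DTCs at 23.9, 23.5 and 26.9 CPM at late L3, 12.7, 15.3 and 18.5 at early L4, 22.1, 15.7 and 18.1 at late L4 and 26.9, 39 and 51.4 in adults. Levels in other cells were 12.5, 9.997 and 11.8 CPM at late L3, 23.7, 25.3 and 26.3 at early L4, 33.4, 24.3 and 38.3 at late L4 and 53.5, 123 and 48.8 in adults. DTCs were above other cells at late L3 and below them at early and late L4, with no overlap at these 3 stages. Of these the late L3 difference was called (1.11 ± 0.34, adjusted p = 0.0352), but not without the 3 libraries that stand apart (0.95, adjusted p = 0.245). Its rise from late L4 to adult was called in DTCs (1.07 ± 0.34, adjusted p = 0.0443) and in other cells (1.23 ± 0.34, adjusted p = 0.0371), each lost without any of 17 or more single libraries (adjusted p up to 0.252 and 0.426). Per length, unc-32 held 81.2 ± 5.98%, 84.3 ± 1.72%, 65.9 ± 5.81% and 32.5 ± 8.7% of subunit a transcripts in DTCs over the 4 stages in order, and vha-6 held 7.04 ± 5.27%, 7.44 ± 2.22%, 20.1 ± 2.74% and 46.5 ± 5.17%. In other cells unc-32 held 55.5 ± 5.81%, 49.7 ± 4.91%, 44.0 ± 8.59% and 30.8 ± 10.05%. The unc-32 shares of the fractions did not overlap at the larval stages and overlapped in adults.

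**Figure D3:**
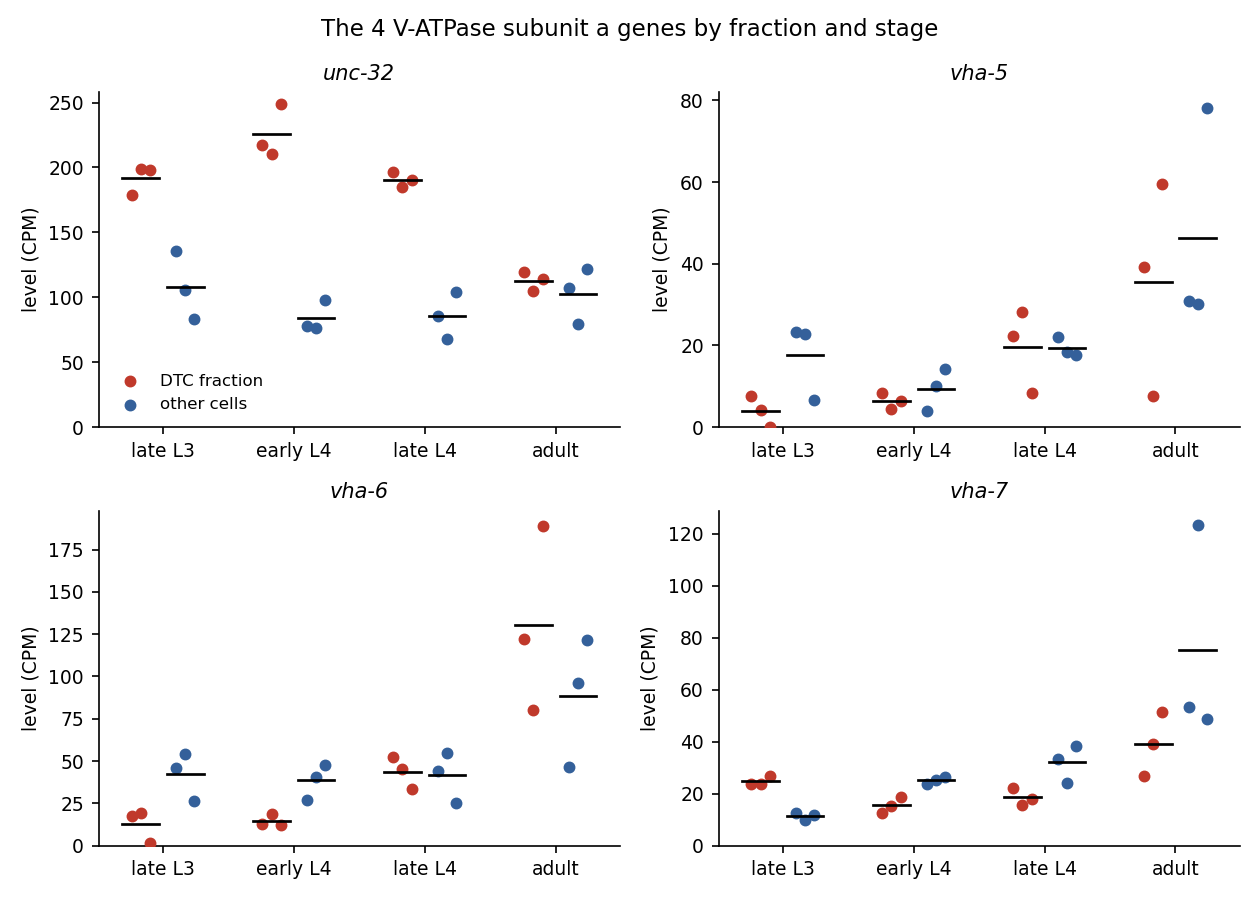
Level (CPM, linear axes from 0) of the 4 subunit a genes in each library by stage; red points are DTC libraries, blue points other cells, and bars are means of 3. unc-32 lies at 179 to 249 CPM in larval DTCs and at 105 to 120 in adult DTCs, while vha-6 goes from at most 19.2 CPM at late L3 and early L4 to 80.1 to 189 in adult DTCs.

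Of the accessory subunits, vha-20 resembles the prorenin receptor and vha-19 the Ac45 protein that guides the pump in mammals. DTC libraries held vha-20 at 50.4, 52.5 and 70.1 CPM at late L3, 109, 106 and 104 at early L4, 197, 210 and 236 at late L4 and 106, 108 and 92.3 in adults. Other cells had 70.9, 79.9 and 37.8 CPM at late L3, 38, 33.7 and 57.6 at early L4, 57.7, 92.2 and 47.8 at late L4 and 60.4, 113 and 139 in adults. The DTC fraction was above other cells in every library at early and late L4 and overlapped with them at late L3 and in adults. Differences were 2.47-fold at early L4 (1.3 ± 0.33, adjusted p = 0.0108) and 3.25-fold at late L4 (1.7 ± 0.33, adjusted p = 0.00129). The early L4 call was lost with RLE scaling (1.03, adjusted p = 0.0621) and library totals (0.72, adjusted p = 0.125), and the late L4 call held under every setting tried. From late L4 to adult vha-20 fell in DTCs (-1.07 ± 0.32, adjusted p = 0.035). This fall was lost without any of 6 single libraries (adjusted p up to 0.0762), without a filter (adjusted p = 0.0873) and without all 4 libraries that stand apart (adjusted p = 0.053). For vha-19 DTC means were 57.3, 77, 92.2 and 68.1 CPM, and no comparison was called.

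Among the cathepsin B-like proteases, 4 of 7 were called lower in DTCs at late L3, where 7.33% of all genes were, and 4 of 7 rose in DTCs from late L4 to adult, where 6.68% did. The gene cpr-6 stood in DTCs at 58.2, 111 and 12.3 CPM at late L3, 216, 135 and 113 at early L4, 291, 183 and 224 at late L4 and 9879, 2072 and 12694 in adults. In other cells cpr-6 was at 209, 210 and 42.8 CPM at late L3, 230, 193 and 151 at early L4, 85.2, 154 and 106 at late L4 and 398, 1040 and 2555 in adults. It was at most 291 CPM in every larval library and at least 398 in every adult one, with adult DTC replicates 1 and 3 above all others. From late L4 to adult it rose 35.3-fold in DTCs (5.14 ± 0.86, adjusted p = 0.000597) and 11.6-fold in other cells (3.53 ± 0.8, adjusted p = 0.0161). In adults it was 6.17-fold higher in DTCs (2.63 ± 0.77, adjusted p = 0.0283), though DTC replicate 2 lay within the range of other cells. Without DTC replicate 3 the adult difference had an adjusted p of 0.132.

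The level of cpr-9 in DTCs was 87.3, 144 and 18.8 CPM at late L3, 120, 157 and 157 at early L4, 423, 283 and 207 at late L4 and 3341, 1272 and 3104 in adults. Other cells had cpr-9 at 505, 486 and 174.6 CPM at late L3, 330, 428 and 470 at early L4, 399, 558 and 220 at late L4 and 1072, 2256 and 4157 in adults. DTCs were below other cells at late L3 and early L4 without overlap, and the fractions overlapped later. The late L3 difference was 4.65-fold (-2.22 ± 0.61, adjusted p = 0.021), and both fractions rose from late L4 to adult (3.08 ± 0.63, adjusted p = 0.0031 in DTCs and 2.67 ± 0.62, adjusted p = 0.0196 in other cells). Its call in other cells was lost without adult replicate 3 (adjusted p = 0.11).

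For cpr-4, a secreted cathepsin B-like enzyme, DTC values were 11.4, 18.3 and 3.55 CPM at late L3, 28, 20.2 and 31.5 at early L4, 42.1, 19.3 and 21.5 at late L4 and 366, 87 and 293 in adults. In other cells cpr-4 stood at 84.7, 90.2 and 17.3 CPM at late L3, 47.7, 60.3 and 90.8 at early L4, 39.7, 82 and 11.9 at late L4 and 195.8, 317 and 783 in adults. Over the 4 stages it was 2.52-fold lower in DTCs (-1.33 ± 0.36, adjusted p = 0.0087), and DTCs and other cells overlapped at late L3 through 1 library, at late L4 and in adults. At late L3 it was called lower (-2.53 ± 0.76, adjusted p = 0.0314), with an adjusted p of 0.11 without DTC replicate 3. The adult step was 3.17 ± 0.77, adjusted p = 0.01 in DTCs and 3.28 ± 0.78, adjusted p = 0.0209 in other cells.

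The gut protease gene cpr-1 was in DTCs at 11.3, 12.8 and 0.067 CPM at late L3, 11, 19.2 and 11.9 at early L4, 16, 27.1 and 22.2 at late L4 and 368, 40.9 and 222 in adults. Other cells held cpr-1 at 100, 120 and 39.2 CPM at late L3, 37.9, 59.7 and 40.1 at early L4, 41.4, 66.9 and 75.3 at late L4 and 132, 38.1 and 182 in adults. At late L3, early L4 and late L4 every DTC library was below every library of other cells. The late L3 difference was 10.7-fold (-3.42 ± 0.95, adjusted p = 0.0222) and the difference over the 4 stages 2.72-fold (-1.44 ± 0.44, adjusted p = 0.0182). In DTCs cpr-1 rose into the adult (3.27 ± 0.95, adjusted p = 0.0274), a call lost without any of 5 libraries, the 3 of late L4 and adult replicates 1 and 3 (adjusted p up to 0.138).

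By contrast cpr-5 was lower in DTCs in the larva without a called rise at the adult step. It stood in DTCs at 73.4, 60.6 and 16.9 CPM at late L3, 82.9, 130 and 81.3 at early L4, 464, 163 and 104 at late L4 and 689, 246 and 354 in adults. Levels of cpr-5 in other cells were 495, 501 and 534 CPM at late L3, 291, 373 and 319 at early L4, 390, 336 and 543 at late L4 and 305, 186 and 395 in adults. At late L3 and early L4 all DTC libraries were far below other cells, and at late L4 and in adults the fractions overlapped. The differences were 10.1-fold at late L3 (-3.34 ± 0.56, adjusted p = 0.000533), a call that held whichever library was left out and without the 3 libraries that stand apart, and 3.34-fold at early L4 (-1.74 ± 0.52, adjusted p = 0.0357). In adults the log2 difference was 0.54 ± 0.51, adjusted p = 0.527. Its stage course differed between the fractions (adjusted p = 0.00935). The remaining genes of the family were cpr-3, with DTC means of 1.51 CPM at late L3 and 169 in adults, and cpr-8, with 66 counts over the DTC libraries and 289 over other cells. Neither was called.

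The cathepsin Z-like gene cpz-1, known for a part in molting, stood in DTCs at 92.4, 153 and 16.2 CPM at late L3, 247, 194 and 160 at early L4, 263, 186 and 240 at late L4 and 5686, 1427 and 7538 in adults. In other cells cpz-1 was at 431, 432 and 162 CPM at late L3, 296, 325 and 380 at early L4, 230, 263 and 186 at late L4 and 664, 788 and 1638 in adults. DTCs were below other cells at late L3 and early L4, overlapped with them at late L4, and in adults 2 of 3 DTC libraries were above all of other cells. The late L3 difference was called (-1.97 ± 0.61, adjusted p = 0.0389), though not when replicate number was a block (adjusted p = 0.0565) or without all 4 libraries that stand apart (-1.82, adjusted p = 0.0619). It rose 21.3-fold into the adult in DTCs (4.41 ± 0.68, adjusted p = 0.000326) and 4.55-fold in other cells (2.19 ± 0.62, adjusted p = 0.0408), and the adult fraction difference was 4.74-fold (2.25 ± 0.62, adjusted p = 0.0214). The rise in other cells was lost without any of 17 single libraries (adjusted p up to 0.203) and with RLE scaling (adjusted p = 0.0718). The adult fraction call was lost without any of 4 libraries (adjusted p up to 0.127). The stage course differed between the fractions (adjusted p = 0.015).

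Cathepsin L, encoded by cpl-1 and known for yolk processing in embryos, was in DTCs at 49.7, 55.7 and 2.28 CPM at late L3, 46.7, 47.2 and 28.5 at early L4, 141, 88.9 and 52.3 at late L4 and 1173, 598 and 1599 in adults. Values of cpl-1 in other cells were 186, 191 and 85.3 CPM at late L3, 75.8, 96.8 and 142 at early L4, 117, 127 and 140 at late L4 and 373, 583 and 895 in adults. DTC libraries lay below other cells at late L3 and early L4 and overlapped with them afterwards. At late L3 the call (-2.1 ± 0.69, adjusted p = 0.0491) was lost when replicate number was a block (adjusted p = 0.0628). In DTCs cpl-1 rose 12-fold from late L4 to adult (3.58 ± 0.73, adjusted p = 0.00299). The other cathepsin Z-like gene, cpz-2, was called nowhere, with DTC means of 18.5 CPM at late L3 and 153 in adults.

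At the step from early to late L4 in DTCs 3 of 14 aspartyl proteases rose, where 3.8% of all genes did. The calls of asp-1 and asp-3 among them were lost with single libraries left out. The median log2 fold change was 1.61 over the 14 aspartyl proteases, 0.85 over the 10 cysteine proteases, none of which was called, and 0 over all genes; the difference between the families was not tested. The cathepsin D-like gene asp-4, known from necrotic cell death in neurons, stood in DTCs at 51.2, 88.2 and 16.1 CPM at late L3, 220, 245 and 118.5 at early L4, 1297, 1346 and 1445 at late L4 and 3627, 1276 and 4257 in adults. Its levels in other cells were 215, 256 and 385 CPM at late L3, 215, 178 and 149 at early L4, 248, 251 and 484 at late L4 and 271, 377 and 566 in adults. DTCs were below other cells in every library at late L3, overlapped with them at early L4, and were above them in every library at late L4 and in adults. The log2 differences were -2.46 ± 0.52, adjusted p = 0.0038 at late L3, 0.11 ± 0.49, adjusted p = 0.916 in early L4 larvae, 2.06 ± 0.51, adjusted p = 0.01 in late L4 larvae and 2.91 ± 0.53, adjusted p = 0.00199 in adults. From early to late L4 asp-4 rose 7-fold in DTCs (2.81 ± 0.53, adjusted p = 0.00243). In other cells no step was called (0.86 ± 0.5, adjusted p = 0.486 at the same step), and the difference in stage course had the smallest adjusted p among the members (0.000476, edgeR). The late L4 fraction call was lost without DTC late L4 replicate 3 (adjusted p = 0.0671).

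The related gene asp-3 had DTC levels of 98, 153 and 13.6 CPM at late L3, 165, 192 and 89.8 at early L4, 950, 523 and 402 at late L4 and 2731, 963 and 1851 in adults. In other cells asp-3 was at 275, 289 and 256 CPM at late L3, 273, 274 and 193 at early L4, 338, 419 and 298 at late L4 and 514, 990 and 1515 in adults. DTCs were below other cells at both early stages, and the fractions overlapped at late L4 and in adults. Its rise from early to late L4 in DTCs (2.07 ± 0.59, adjusted p = 0.045) was lost without any of 18 libraries. The intestinal gene asp-1 was in DTCs at 110, 118 and 20 CPM at late L3, 89.9, 98.5 and 90.4 at early L4, 490, 411 and 399 at late L4 and 1549, 446 and 1121 in adults. Other cells held asp-1 at 290, 311 and 197 CPM at late L3, 181, 240 and 245 at early L4, 456, 603 and 321 at late L4 and 384, 644 and 1529 in adults. DTCs were lower at late L3 and early L4 without overlap. The late L3 difference was -1.69 ± 0.54, adjusted p = 0.0439, a call lost when replicate number was a block (adjusted p = 0.0596) and without the 3 libraries that stand apart (adjusted p = 0.0953). In DTCs asp-1 rose 4.66-fold from early to late L4 (2.22 ± 0.55, adjusted p = 0.02).

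In DTCs levels of asp-6, another aspartyl protease, were 40.2, 32.3 and 6.64 CPM at late L3, 64.4, 55.6 and 55.1 at early L4, 101, 107 and 139 at late L4 and 797, 279 and 523 in adults. In other cells asp-6 stood at 155, 155 and 78 CPM at late L3, 105, 150 and 175.2 at early L4, 142, 242 and 112 at late L4 and 313, 466 and 1212 in adults. At the first 3 stages every DTC library but late L4 replicate 3 was below other cells, and in adults the fractions overlapped. It was 4.89-fold lower in DTCs at late L3 (-2.29 ± 0.57, adjusted p = 0.011) and 2.15-fold lower over the 4 stages (-1.1 ± 0.27, adjusted p = 0.00441). The rise into the adult was 2.2 ± 0.56, adjusted p = 0.0134 in DTCs and 2.0 ± 0.56, adjusted p = 0.0384 in other cells. Its call was lost without any of 4 single libraries in DTCs (adjusted p up to 0.0996) and any of 15 in other cells (up to 0.287). Without the 3 libraries that stand apart it was also lost in other cells (adjusted p = 0.0632).

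DTC values of asp-2 were 39, 58 and 6.84 CPM at late L3, 73.5, 54.4 and 56.1 at early L4, 121.6, 121 and 103 at late L4 and 1545, 480 and 1645 in adults. Its values in other cells were 101, 95 and 55.2 CPM at late L3, 79.6, 95.8 and 123 at early L4, 91.9, 118.9 and 47.3 at late L4 and 168, 335 and 748 in adults. The adult libraries stood above all larval ones in both fractions. The step from late L4 to adult was 10.6-fold in DTCs (3.41 ± 0.65, adjusted p = 0.00165) and 4.85-fold in other cells (2.28 ± 0.62, adjusted p = 0.0344), the second lost without any of 10 libraries. For asp-13 the DTC values were 21.7, 26.3 and 0 CPM at late L3, 29.5, 29 and 33 at early L4, 29.8, 20.9 and 33.4 at late L4 and 543, 118 and 841 in adults. In other cells asp-13 was at 59.8, 72.9 and 9.98 CPM at late L3, 67.7, 64.3 and 56.8 at early L4, 38.2, 42.1 and 8.12 at late L4 and 50.3, 85 and 458 in adults. Its adult DTC libraries were all above the larval ones, and the step was 17.9-fold (4.16 ± 1.22, adjusted p = 0.0289), lost without any of 5 libraries.

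In adults asp-14 and asp-8 were called higher in DTCs beside asp-4. Values of asp-14 in DTCs were 13.2, 16.2 and 3.35 CPM at late L3, 53.3, 47.7 and 52.3 at early L4, 92.3, 70.9 and 179 at late L4 and 1160, 183 and 786 in adults. Other cells held asp-14 at 5.36, 13.9 and 19.6 CPM at late L3, 56.5, 67.9 and 30.1 at early L4, 15.2, 57.3 and 37.5 at late L4 and 37.5, 30.1 and 154 in adults. DTCs were above other cells in every library at late L4 and in adults, the latter at 9.6-fold (3.26 ± 0.77, adjusted p = 0.00899). DTC libraries held asp-8 at 3.1, 3.22 and 1.34 CPM at late L3, 5.92, 3.71 and 3.68 at early L4, 24.2, 12.9 and 9.99 at late L4 and 228, 41.5 and 263 in adults. Other cells held asp-8 at 3.02, 5.15 and 4.07 CPM at late L3, 4.41, 6.02 and 8.85 at early L4, 17.3, 21.9 and 3.23 at late L4 and 6.13, 0.795 and 39.4 in adults. The adult groups did not overlap, and asp-8 was 11.5-fold higher in DTCs (3.52 ± 0.96, adjusted p = 0.0201). Both genes rose in DTCs from late L4 to adult (2.64 ± 0.75, adjusted p = 0.0248 for asp-14 and 3.5 ± 0.96, adjusted p = 0.0201 for asp-8), as did asp-5, from 113 ± 19.7 to 412 ± 205 CPM (1.87 ± 0.61, adjusted p = 0.0495), the last lost without any of 22 libraries. The steps of asp-14 and asp-8 were lost without any of 5 and 4 single libraries (adjusted p up to 0.145 and 0.109). In adults asp-5 overlapped between the fractions and was not called (0.68 ± 0.59, adjusted p = 0.486).

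Several aspartyl protease genes were close to absent. Over the DTC libraries asp-17 had 68 counts, in 5 of 12 libraries at 0.112 to 2.38 CPM, and 7 counts over other cells, in 3 libraries at 0.057 to 0.196 CPM. For asp-9 the DTC total was 31 counts in 3 libraries, and that of other cells 287 counts in 9 libraries, with 10.1 and 5.47 CPM in 2 adult libraries and at most 2.27 CPM elsewhere. Both were called over the 4 stages (adjusted p = 0.0382 and 0.0444), but groups with 3 counts or fewer leave no fold to print. Each call was lost without any of 14 or more single libraries, and that of asp-17 without the 3 libraries that stand apart (adjusted p = 0.09). Neither asp-7 (61 and 128 counts in DTCs and other cells), asp-18 (171 counts in all) nor asp-12 was called, with asp-12 at 6.95 CPM in adult DTCs.

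**Figure D4:**
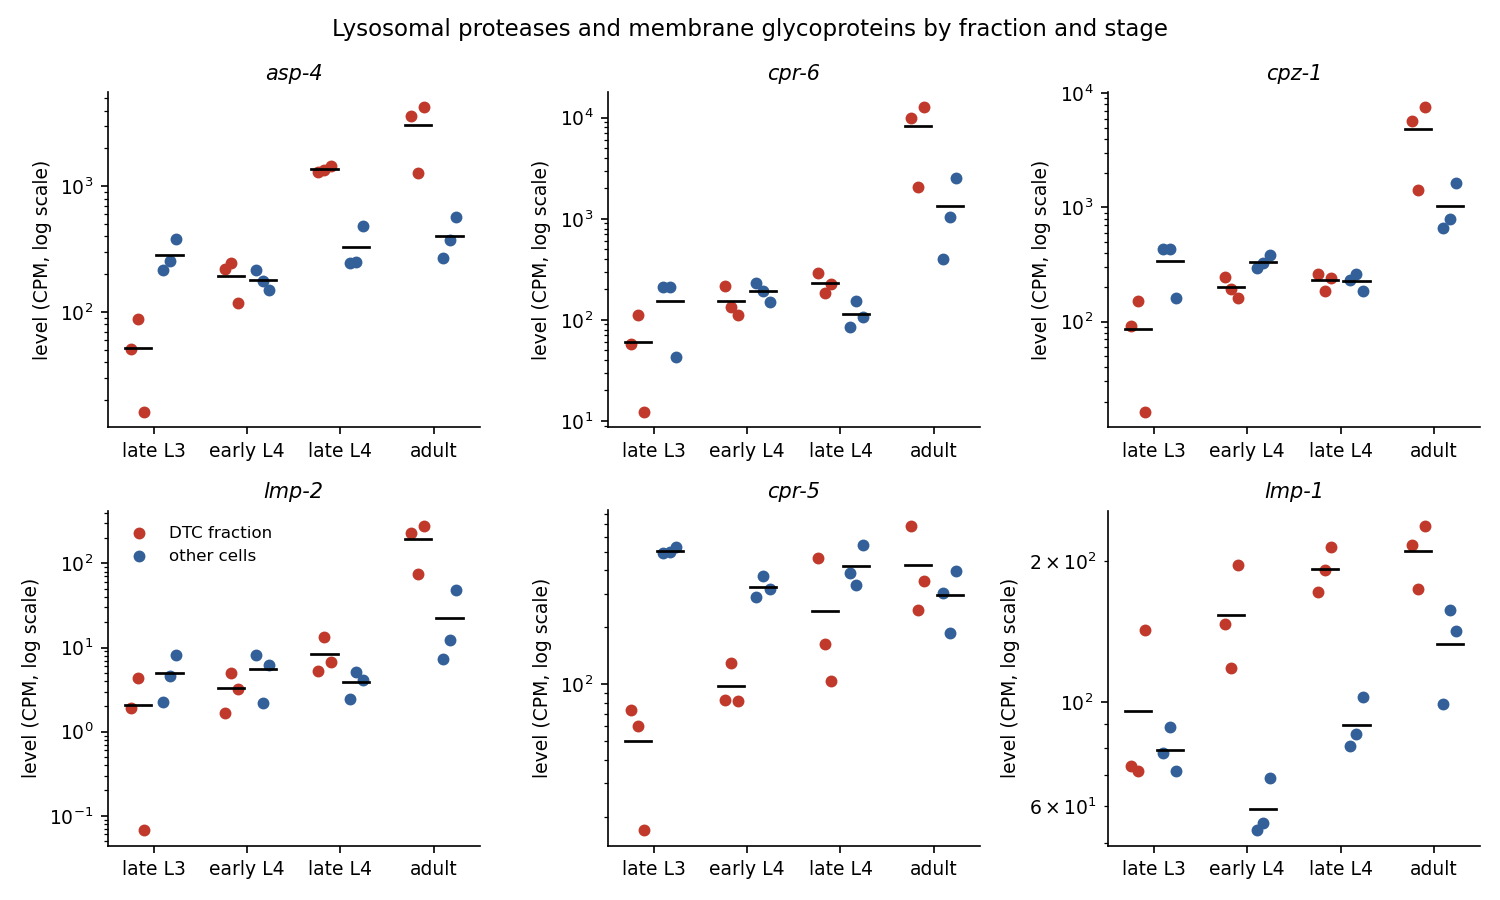
Level (CPM, log scale, axes differ between panels) of 4 proteases and both membrane glycoproteins in each library; red points are DTC libraries, blue points other cells, bars means of 3. asp-4 reaches 1297 to 1445 CPM in late L4 DTCs, whereas cpr-6 and cpz-1 are at most 291 and 263 CPM in larval DTCs.

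The protease changes in DTCs moved together with the level of intestine markers. The sum of all 23 was 145578, 37963 and 175023 CPM in adult DTCs. Leaving out the 6 yolk protein (vit) genes, the other 17 summed to 348 to 603 CPM in DTCs at late L3 and early L4, 906 to 1516 at late L4 and 4291, 1926 and 4534 in the 3 adult libraries. In adult other cells the 17 summed to 816, 1749 and 1986 CPM. Adult DTC replicate 2 was the lowest of its group in both sums, and DTC late L3 replicate 3, with 144 CPM of proteases against 820 and 1134, was the lowest of all 24 in the 17 markers. The gut transcription factor elt-2 stood at 6.87 to 39.6 CPM in adult DTCs and at 0.0613 to 4.75 in adult other cells, and the gut esterase ges-1 at 1.46 to 28.2 and 2.39 to 4.97. From late L4 to adult 6 of the 17 markers rose in DTCs and 0 fell, with a median log2 fold change of 2.0. The part of intestine RNA in the protease results was not tested. The coelomocyte list stands for scavenger cells rich in lysosomes, but it includes lin-12, which is not particular to them. Its 5 genes summed to 23 to 306 CPM in DTCs and 301 to 3337 in other cells. Hypodermis markers summed to 272 to 2034 and 1302 to 11115. The part of either cell type in the lower larval protease levels of DTCs was not tested.

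**Figure D5:**
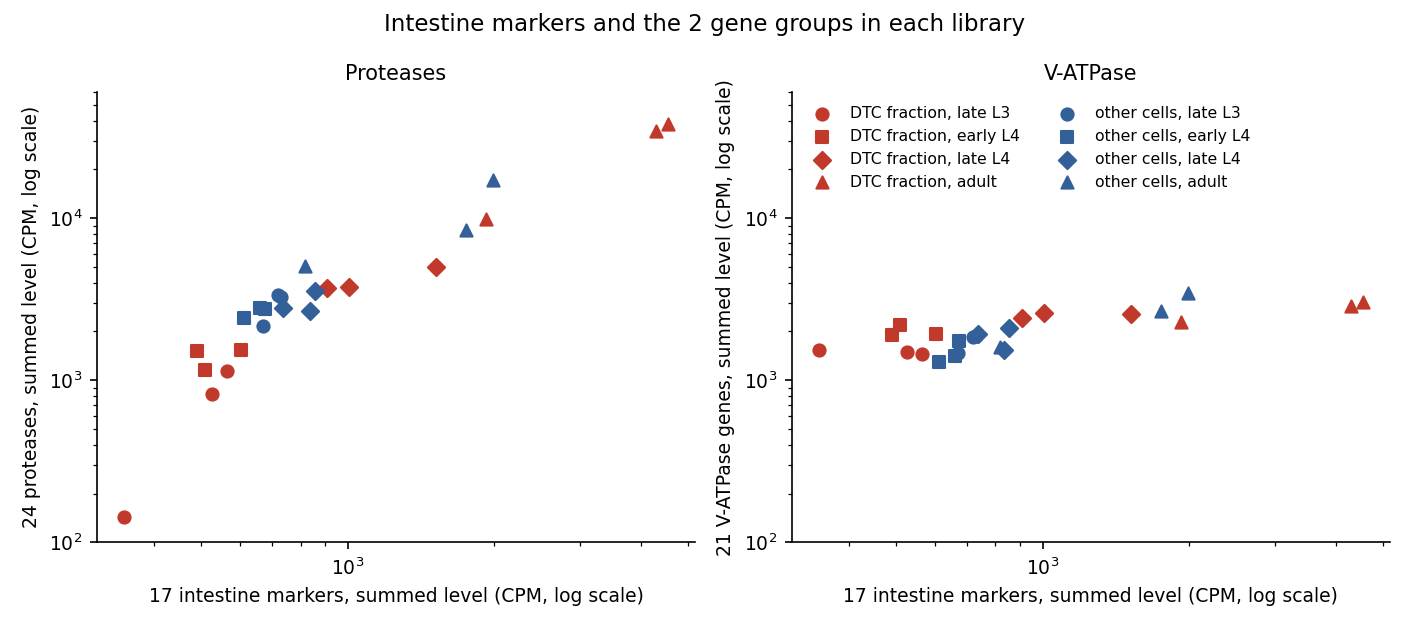
Summed level of the 24 proteases (left) and the 21 V-ATPase genes (right) against the summed level of 17 intestine markers without yolk protein genes, in CPM on log axes; each point is 1 of 24 libraries, coloured by fraction and shaped by stage. Libraries high in the markers are high in proteases, from 144 CPM in a late L3 DTC library to 37972 in an adult one, while V-ATPase sums stay within 1288 to 3431 CPM.

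The lysosomal membrane glycoproteins behaved differently from each other. DTC libraries held lmp-1, the main LAMP-like protein, at 73.2, 71.2 and 143 CPM at late L3, 147, 118 and 195.8 at early L4, 172, 191 and 214 at late L4 and 216, 174 and 238 in adults. In other cells lmp-1 was at 77.9, 88.5 and 71.3 CPM at late L3, 53.3, 55.3 and 69 at early L4, 80.7, 85.6 and 103 at late L4 and 99.2, 157 and 142 in adults. DTCs were above other cells in every library at early L4, late L4 and in adults. The difference was 1.8-fold over the 4 stages (0.85 ± 0.14, adjusted p = 7.46e-05), 2.59-fold at early L4 (1.37 ± 0.28, adjusted p = 0.00178) and 2.15-fold at late L4 (1.1 ± 0.27, adjusted p = 0.0101). Without DTC early L4 replicate 3 the early L4 difference had an adjusted p of 0.0625, and without DTC late L4 replicate 3 the late L4 one had 0.128.

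Its paralog lmp-2 stood in DTCs at 1.91, 4.29 and 0.067 CPM at late L3, 1.68, 5.01 and 3.21 at early L4, 5.21, 13.2 and 6.75 at late L4 and 229, 75.3 and 280 in adults. Values of lmp-2 in other cells were 2.22, 4.59 and 8.1 CPM at late L3, 8.18, 2.19 and 6.16 at early L4, 2.47, 5.14 and 4.1 at late L4 and 7.36, 12.4 and 48 in adults. Adult DTCs were above every other library. From late L4 to adult it rose 23.2-fold in DTCs (4.54 ± 0.98, adjusted p = 0.00449), and in adults it was 8.63-fold higher than in other cells (3.11 ± 0.92, adjusted p = 0.0294), the second call lost with library totals alone (2.76, adjusted p = 0.0503).

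Among scavenger receptors scav-3, a LIMP-2-like protein of the lysosomal membrane, was the member called. It stood in DTCs at 45.7, 46.4 and 42.2 CPM at late L3, 37.6, 29.7 and 38.6 at early L4, 67.9, 57.1 and 92.7 at late L4 and 43.9, 48.1 and 53 in adults. Its values in other cells were 33, 32 and 24.8 CPM at late L3, 10.8, 15.7 and 16.1 at early L4, 16.6, 27.6 and 25.7 at late L4 and 30.8, 53.7 and 26 in adults. DTCs were above other cells in every larval library and overlapped with them in adults. The difference was 1.98-fold over the 4 stages (0.98 ± 0.15, adjusted p = 3.79e-05), 2.49-fold at early L4 (1.32 ± 0.3, adjusted p = 0.00513) and 3.12-fold at late L4 (1.64 ± 0.3, adjusted p = 0.000803). The early L4 call was lost with library totals alone (0.72, adjusted p = 0.154) and without a filter (1.3, adjusted p = 0.0786). It was also lost without replicate 3 of either fraction at early L4 (adjusted p up to 0.0939). Its rise from early to late L4 in DTCs (1.04 ± 0.3, adjusted p = 0.0449) was lost without any of 15 libraries (adjusted p up to 0.17). The other 5 receptors were called nowhere; scav-1, the highest of them, had DTC means of 6.45 CPM at early L4 and 42.1 in adults, and scav-2, scav-4, scav-5 and scav-6 stayed at or under 10.8 CPM in every group mean.

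Other genes of the pathway were taken from 4 lists of non-members. Over the mean of the 4 stages, where 16.3% of all genes were higher and 14.3% lower, 8 of 20 genes for lysosomal membrane proteins and transporters were higher in DTCs and 1 lower (medians 0.52 over the list and -0.14 over all genes). The higher ones included the Niemann-Pick type C homologue ncr-1 (2.1 ± 0.24, adjusted p = 1.19e-06) and the lipid kinase ppk-3 (1.73 ± 0.17, adjusted p = 1.68e-07). The 1 lower gene was ncr-2, a paralog of ncr-1 (-1.79 ± 0.58, adjusted p = 0.0249). Of 14 genes for pump assembly and nutrient signalling at the lysosome 8 were higher and 1 lower, among them the folliculin gene flcn-1 (1.04 ± 0.15, adjusted p = 1.47e-05) and the raptor gene daf-15 (0.98 ± 0.15, adjusted p = 4.95e-05). Of 30 genes for lysosome biogenesis, fusion and autophagy 14 were higher and 1 lower, such as vps-45 (2.27 ± 0.18, adjusted p = 6.67e-09), the Atg8 homologue lgg-1 (1.2 ± 0.12, adjusted p = 1.93e-07) and the TFEB homologue hlh-30 (1.14 ± 0.16, adjusted p = 1.14e-05). In DTCs hlh-30, a transcriptional regulator of lysosomal genes, rose from early to late L4 (2.25 ± 0.32, adjusted p = 0.000185) and fell from late L4 to adult (-1.4 ± 0.31, adjusted p = 0.00583). Of 46 tested genes for other hydrolases and their inhibitors 11 were higher and 5 lower over the 4 stages, a share near that of all genes in this comparison (30.6% called), among them the mannosidase aman-1, which was lower in DTCs (-3.28 ± 0.37, adjusted p = 9.28e-07), and the DNase crn-7, which was higher (1.92 ± 0.26, adjusted p = 1.17e-05). From early to late L4 4 of the 46 rose in DTCs and 2 fell (3.8% and 1.77% of all genes), and the sphingomyelinase asm-1 (3.51 ± 0.68, adjusted p = 0.00339) and the hexosaminidase hex-1 (2.88 ± 0.31, adjusted p = 1.35e-05) were among those that rose. Among those that fell was tag-196 (-3.13 ± 0.4, adjusted p = 5.79e-05). This gene was higher in DTCs at early L4 (4.05 ± 0.42, adjusted p = 1.23e-06) and over the 4 stages (2.08 ± 0.19, adjusted p = 6.95e-08). From late L4 to adult 8 of the 46 rose in DTCs and 3 fell (6.68% and 6.12% of all genes), with the cystatin cpi-1 (4.79 ± 0.62, adjusted p = 7.77e-05) and the DNase II homologue nuc-1 (3.88 ± 0.5, adjusted p = 7.62e-05) among those that rose.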

How the data were processed

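RNA from sorted cells was sequenced as 24 libraries, 3 in each of 8 groups of fraction and stage. The authors deposited 1 table of raw counts per gene for all libraries; its unit is counts, not normalized. Per the submitters' processing notes, FastQC, cutadapt, Bowtie2 and HTSeq were used with the ce11 build; for tool versions and strandedness the sources used here give nothing, so overlapping and near-identical genes are uncertain. Per the labels' protocols, polyadenylated RNA was turned into libraries with Nextera XT from 1 ng of cDNA. Ribosomal RNA genes took 7.254% to 33.205% of counts, and totals of 8391423 to 18045720 counts set the precision.

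Counts were tested with edgeR 4.0.16 in R 4.3.3: filterByExpr over the 8 groups (16887 genes kept), TMM scaling, 8 group means fitted to all 24 libraries, and the quasi-likelihood test with Benjamini-Hochberg adjustment over all genes tested, called at an adjusted p under 0.05. The standard error of a log2 fold change is its size divided by the square root of F. Levels are counts scaled to a TMM-adjusted total of 1e+06 (CPM), and per kilobase of exon (WBcel235, Ensembl) where genes are compared. The fit was also run on simulated counts, drawn with a smaller spread among libraries than in these data (common biological coefficient of variation 0.835). That run therefore cannot show how reliable the calls are here. No label says that replicates came from separate cultures; p-values therefore cover the spread among these libraries alone, which may be technical.

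The members and gene lists were chosen with earlier results of these data known. Genes described library by library were the 4 subunit a genes, the pairs vha-2 and vha-3 and vha-15 and vha-18, and, of each comparison, the 5 called members with the largest log2 fold change in each direction. Other members are given by group means, and non-members only from the lists, at most 4 called genes of largest change per list. From the hydrolase list 2 genes, glb-1 and mps-3, were removed after their values were seen, because their symbols name a globin and a channel subunit. Some genes are in more than 1 list: nhx-2, asah-1 and elt-2 belong to both a pathway list and the intestine list. At late L3 the deviations of same-numbered libraries of the fractions had correlations of 0.16, 0.115 and 0.248, and values with replicate number as a block are given there. Such correlations were not particular to late L3, reaching 0.28 from early to late L4 in DTCs. Alternatives were RLE scaling, library totals alone, no filter, a filter of 10 counts in 3 libraries, DESeq2 1.42.0, the replicate block, the groups compared alone, and each library left out. Leaving out the 3 libraries that stand apart, all 4 such libraries, or the adult groups was chosen after seeing the data.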

Additional observations from a re-analysis of the deposited data

Results flagged for a closer look

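The stage course differed between DTCs and other cells for 7 members, each by edgeR's test of the difference itself over the 3 steps. These were 13.2% of the members, a share near the 13.9% of all genes called. The cathepsin D-like gene asp-4 had an adjusted p of 0.000476, with a step from early to late L4 of 2.81 on the log2 scale in DTCs and 0.86 in other cells. For the cathepsin B-like gene cpr-5 it was 0.00935, with fraction differences of -3.34 at late L3 and 0.54 in adults. For vha-15, a gene for subunit H, it was 0.0144, with fraction differences of -0.71 at late L3 and 1.15 at late L4. Without a filter on low counts it was 0.0526. For the cathepsin Z-like gene cpz-1 it was 0.015, with -1.97 at late L3 and 2.25 in adults. For vha-20, an accessory subunit, it was 0.0151, with 1.7 at late L4 and -0.03 in adults. For the subunit a gene vha-7 it was 0.0163, with 1.11 at late L3 and -0.69 at early L4. Without the 3 libraries that stand apart it was 0.0572, without all 4 it was 0.0818, and without a filter it was 0.102. With other cells late L3 replicate 2 alone left out it was 0.0569. For unc-32 it was 0.0322, with 1.42 at early L4 and 0.13 in adults, and it rose to 0.112 with RLE scaling, to 0.258 without a filter, and above 0.05 without any of 13 single libraries (up to 0.111, without adult DTC replicate 3).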

How the results depend on the processing

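Of 79 calls of a member in a comparison, 30 held whichever library was left out. A filter of 10 counts in 3 libraries ended 1 call, DESeq2 3, RLE scaling 11, leaving out the 3 libraries that stand apart 14 and all 4 13, the replicate block 15, no filter 17, library totals 19, and fitting only the groups compared 22 of 59; no called direction reversed. With each library left out in turn the count of called members ranged from 11 to 18 for the fraction difference over 4 stages, from 3 to 16 at late L3 (lowest without other cells replicate 2), from 1 to 12 at early L4 (without DTC replicate 3), from 3 to 7 at late L4 (without DTC replicate 3) and from 1 to 9 in adults (without DTC replicate 1). In DTCs it ranged from 0 to 2, from 1 to 5 and from 7 to 18 over the 3 steps, in other cells from 0 to 2, 0 to 0 and 0 to 9, and for the difference in stage course from 5 to 12. Library totals alone gave 20 calls over the 4 stages, 10 at early L4, 2 from early to late L4 in DTCs and 3 from late L4 to adult in other cells. They moved the median log2 fold change of all genes to -0.5 over the 4 stages and -0.94 at early L4, where RLE scaling gave -0.33 and -0.63. RLE scaling gave 1 call from late L3 to early L4 in DTCs and 3 from late L4 to adult in other cells. Fitting only the groups compared gave 5 calls at late L3, 21 at early L4, 1 in adults, 3 and 12 over the larval DTC steps, and 3 for the adult step in other cells. DESeq2 gave 22 at late L3, 13 at early L4, 13 in adults, 6 and 9 over the larval DTC steps, 3 from late L3 to early L4 in other cells and 23 for the stage course. Without a filter 2 members were called from late L3 to early L4 in DTCs and 14 for the stage course. Without the 3 libraries that stand apart there were 12 calls at early L4, 11 in adults, 2 for the first step in either fraction, 5 for the adult step in other cells and 15 for the stage course. Without all 4 there were 7 at late L3, 9 at early L4, 11 in adults, 1 and 2 for the first step in DTCs and other cells, and 14 for the stage course. The difference of vha-2 over the 4 stages, not called, turned to -0.13 with library totals and -0.03 without those 3 libraries, and ranged from -0.05 to 0.25 with single libraries left out; that of vha-15 turned to -0.05 with library totals. The cause was not tested. In no comparison did all 3 replicates correlate best with their own number. Between fractions at late L3 1 of 3 did, with correlations up to 0.248. From late L3 to early L4 in DTCs 2 of 3 did, with correlations up to 0.193. From early to late L4 in DTCs the correlations reached 0.28. With replicate number as a block the counts were 11 over the 4 stages, 9 at late L3, 5 and 6 at the L4 stages, 6 in adults, 2 and 15 for the later DTC steps, 3 for the adult step in other cells and 7 for the stage course. Totals of 8391423 counts or more limit the 5 members with a group at 3 counts or fewer.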

Other observations

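Neighbouring members on a chromosome had unlike levels per kilobase of exon (CPM per kb, group means). The genes asp-8 and asp-7 lie 353 bases apart on the same strand of chromosome V, yet in adult DTCs asp-8 stood at 145 and asp-7 at 0 CPM per kb. Between asp-6 and asp-5, at 418 and 332 CPM per kb in adult DTCs, lies asp-12 at 4.99. The cathepsin B-like genes cpr-5 and cpr-8 lie 565 bases apart on opposite strands, with cpr-5 at 423 CPM per kb in other cells at late L3 and cpr-8 at 1.68. The proteolipid genes vha-1 and vha-2, 400 bases apart on one strand, stood at 177 and 430 CPM per kb in adult DTCs, and neither was called in any comparison. These differences between neighbours were not tested.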
